A study of Mus musculus with 9 samples.

Results

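The 8 complement genes described here encode the components C1ra, C4b, C2, Cfb and C3, the membrane regulator Cd55 and the anaphylatoxin receptors C3ar1 and C5ar1. They were taken by gene symbol from the 20603 genes of the deposited count table. All 8 were present, and all 8 were among the 15613 genes with enough counts to be tested. RNA was sequenced from mouse conjunctiva, the moist lining of lids and eyeball, in 9 libraries of 3 groups, and each library held the pooled tissue of 3 mice. The challenged Vegfr3iLECko group (3 pools) came from Vegfr3 fl/fl;prox1CreERT2 mice on a C57BL/6j background, in which a tamoxifen-inducible Cre under the Prox1 promoter deletes Vegfr3 in Prox1-expressing cells, chiefly lymphatic endothelium. The challenged control group (3 pools) and the unchallenged control group (3 pools) came from Vegfr3 fl/fl littermates without the Cre. All groups, the unchallenged controls included, had received 5 intraperitoneal tamoxifen doses of 75 mg/kg at week 5, and at week 6 an immunization with ovalbumin (250 µg) in aluminum hydroxide (5 mg) plus pertussis toxin (0.3 µg). The challenged groups then received, from 14 days later, a drop of 250 µg of ovalbumin in 5 µL on the right eye every day for 28 days, while the other eye got saline. From which eye or mice the unchallenged pools were taken is not stated in the labels.

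Complement is a cascade of plasma and tissue proteins that tags targets and calls in leukocytes. The classical pathway starts with C1q and its proteases C1r and C1s, which cut C4 and C2 to form a C3 convertase. The alternative pathway builds its own C3 convertase from C3b and factor B, and either enzyme splits C3 into the opsonin C3b and the peptide C3a. C3a and C5a act on the receptors encoded by C3ar1 and C5ar1, which are found mainly on myeloid cells, and CD55 on cell surfaces speeds the decay of the convertases. Much of the circulating protein comes from liver, but epithelium, fibroblasts and macrophages also make several components locally.

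Promoter windows of the members were compared because most of the 8 genes lay on the same side of 0 with challenge while Cd55 lay on the other. None of these challenge differences passed in the main test given below, and the part of the motifs in them was not tested. RefSeq's table of promoters (build GRCm38.p6, 250 bases before to 50 after the annotated start) held 5 of the 8 members, namely C1ra, C3, Cd55, C3ar1 and C5ar1. The windows shown are those of C3, the central and most abundant member, of C3ar1, of C1ra, the steadiest classical member, and of Cd55. They run 5′ to 3′ on the gene's strand, and capitals mark matches on either strand to the motifs named after them.
C3, chr17:57228087-57228386, minus strand: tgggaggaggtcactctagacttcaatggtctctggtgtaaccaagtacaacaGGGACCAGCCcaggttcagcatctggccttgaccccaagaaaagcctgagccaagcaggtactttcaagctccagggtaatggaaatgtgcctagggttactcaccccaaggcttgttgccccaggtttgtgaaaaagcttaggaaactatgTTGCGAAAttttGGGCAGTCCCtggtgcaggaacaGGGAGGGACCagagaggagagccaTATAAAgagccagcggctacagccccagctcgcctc
C3ar1, chr6:122856108-122856407, minus strand: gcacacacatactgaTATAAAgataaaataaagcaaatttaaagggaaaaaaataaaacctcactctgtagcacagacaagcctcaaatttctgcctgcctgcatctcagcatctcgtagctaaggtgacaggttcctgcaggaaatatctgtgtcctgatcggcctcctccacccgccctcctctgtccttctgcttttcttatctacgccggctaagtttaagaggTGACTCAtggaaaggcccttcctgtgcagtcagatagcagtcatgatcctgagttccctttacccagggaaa
C1ra, chr6:124512371-124512670, plus strand: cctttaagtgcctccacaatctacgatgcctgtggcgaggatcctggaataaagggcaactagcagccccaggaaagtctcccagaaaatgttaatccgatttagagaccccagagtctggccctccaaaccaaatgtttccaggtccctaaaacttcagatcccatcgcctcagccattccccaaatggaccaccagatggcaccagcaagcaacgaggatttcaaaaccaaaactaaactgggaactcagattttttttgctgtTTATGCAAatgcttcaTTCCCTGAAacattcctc
Cd55, chr1:130462695-130462994, minus strand: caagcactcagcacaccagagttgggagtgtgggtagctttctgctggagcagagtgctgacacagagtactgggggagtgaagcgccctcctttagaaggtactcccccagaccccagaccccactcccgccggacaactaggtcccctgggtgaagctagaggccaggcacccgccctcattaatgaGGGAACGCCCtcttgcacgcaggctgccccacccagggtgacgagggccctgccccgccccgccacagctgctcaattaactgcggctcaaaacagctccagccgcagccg
Searched on both strands were GAS (TTCNNNGAA), ISRE (GAAA, any 2 bases, GAAA), a C/EBP core (TTGCNNAA), AP-1 (TGANTCA), an NF-kB form (GGGA, any 4 bases, CC) and the TATA box (TATAAA). No matches overlapped. The C3 window held 3 NF-kB matches (bases 54 to 63, 218 to 227 and 241 to 250, the second on the opposite strand), a C/EBP match at bases 206 to 213 and a TATA box at bases 265 to 270. The C3ar1 window held an AP-1 match at bases 229 to 235 and a TATA box at bases 16 to 21. The C1ra window held the only GAS match among the 5, at bases 283 to 291, and a C/EBP match on the opposite strand at bases 267 to 274. The Cd55 window held an NF-kB match at bases 190 to 199, and these letters were not found in the C5ar1 window. Of all 32851 windows of 300 bases in the table, 8.3% held GAS, 3.44% ISRE, 10.8% the C/EBP core, 7.81% AP-1, 20.7% the NF-kB form and 13.6% the TATA box. Counted from the annotated start, the TATAAA letters begin at 15 in C3 and at -235 in C3ar1. The C1ra matches also lie after the start, beginning at 17 (C/EBP) and 33 (GAS). A match is a string of letters and not a shown binding site.

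Libraries held 16490050 to 24746836 counts. The precision of abundant members such as C3 was set by the spread between pools and that of Cfb also by counting. Levels are given as CPM, counts scaled to a common library total, with TMM factors that even out libraries by the bulk of their genes. Flt4, the gene symbol of Vegfr3, was at 7.78 ± 4.48 CPM in challenged knockouts, 17.9 ± 3.95 CPM in challenged controls and 19.6 ± 6.70 CPM in unchallenged controls (SD, n = 3 pools each). Challenged knockouts 1 to 3 were at 12.9, 5.07 and 5.31 CPM, and challenged controls 1 to 3 at 13.3, 20.2 and 20.1 CPM. Flt4 did not pass in the test across all genes (knockouts against challenged controls, log2 fold change -1.20, SE 0.40, adjusted p = 0.468). With 1 library left out its log2 fold change ran from -1.78 (without knockout 1) to -0.96 (without knockout 2). The 10 markers of conjunctival epithelium, such as Krt5, Krt13 and Muc5ac, had counts in every library and summed to 20749 to 35675 CPM in challenged knockouts, 20453 to 31517 CPM in challenged controls and 19670 to 29504 CPM in unchallenged controls. Markers of neighbouring skeletal muscle summed to 1589 to 1870 CPM in challenged knockouts, 243 to 605 CPM in challenged controls and 1109 to 3770 CPM in unchallenged controls, and the part of this in the results was not tested. In bulk tissue a change in the number of cells of a type and a change in RNA per cell cannot be told apart. The 3 pools of a group are the replicates, so p-values measure the spread between pools and not between single mice.

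Between challenged and unchallenged control conjunctiva, 7 of the 8 members had higher fitted levels with challenge and Cd55 a lower one, against 48.5% of all 15613 genes with a log2 fold change above 0. The difference was 3.20-fold for C2, 1.49- to 1.86-fold for C3, C4b, Cfb, C3ar1 and C5ar1 and 1.12-fold for C1ra. None of the 8 passed at an adjusted p of 0.05 over all genes by the edgeR quasi-likelihood test, by which 10 genes passed in all (0.064% of those tested). In the same test 1 of the 8, C2, had an unadjusted p under 0.05, against 12.4% of all genes. The median log2 fold change of the 8 was 0.74, beside -0.01 over all genes tested.

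Between challenged Vegfr3iLECko and challenged control conjunctiva the fitted levels lay the other way: 7 of the 8 were lower in the knockouts, against 50.4% of all genes with a log2 fold change above 0, and their median log2 fold change was -0.75 beside 0.0027 over all genes. C3ar1, C2, Cfb and C5ar1 were at 0.46 to 0.52 times the challenged control level and C4b, C3 and C1ra at 0.68 to 0.77 times, while Cd55 had a log2 fold change of 0.03 with an SE of 0.22. None of the 8 passed over all genes, and no gene of the 15613 did (0%); C2 and Cfb had an unadjusted p under 0.05, against 8.49% of all genes (1325 genes), and DESeq2 called 231 genes (1.51%) but none of the 8. Both comparisons use the same 3 challenged control pools, so opposite signs in the 2 are not independent of each other. The series held no unchallenged knockouts, so whether a genotype difference depends on challenge cannot be told.

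**Figure D1:**
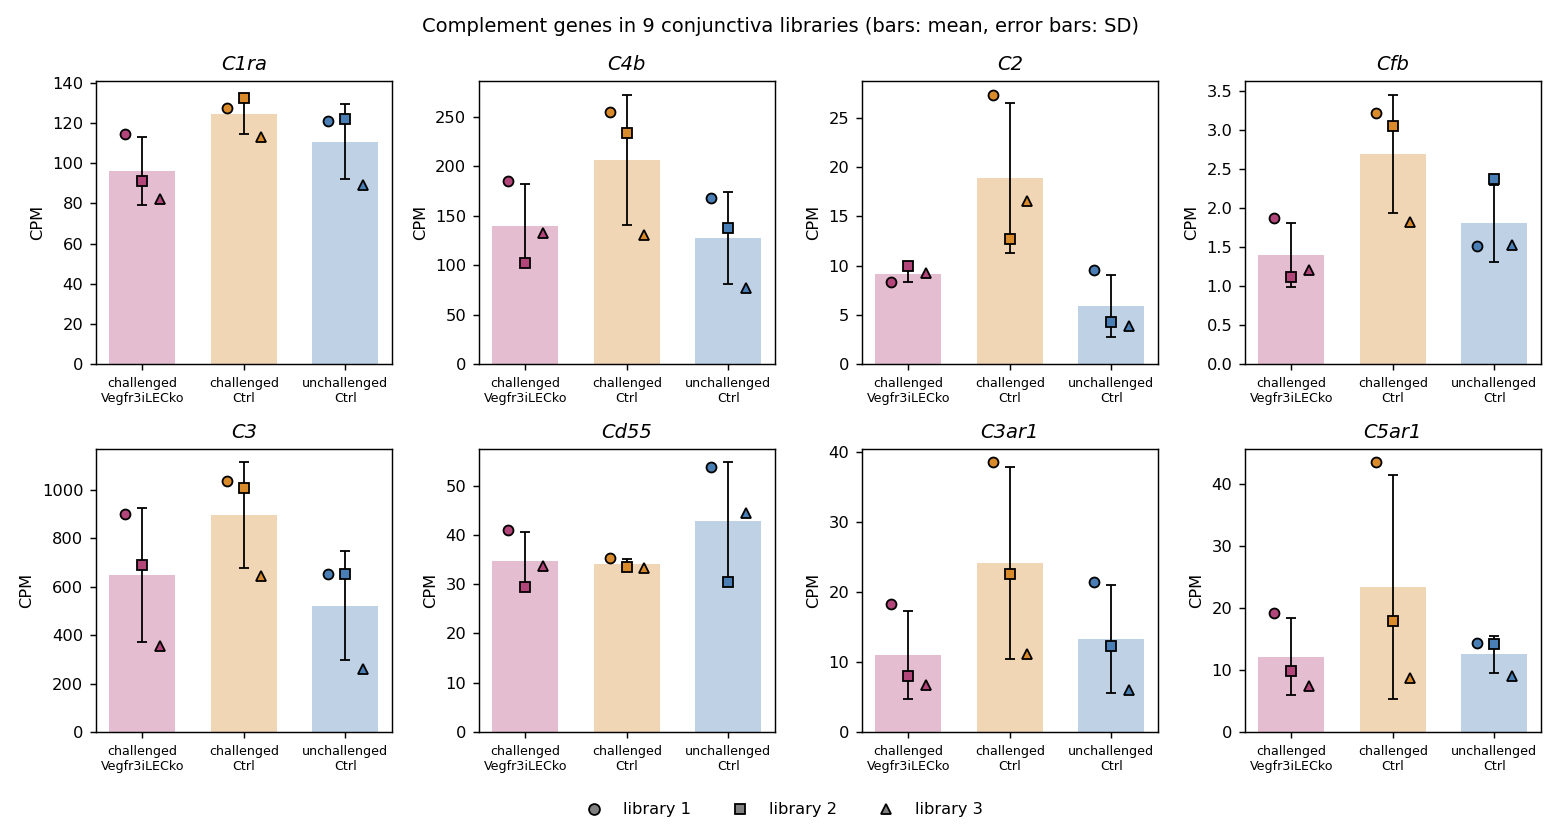
Level of each of the 8 complement genes in CPM (y axis, starting at 0) in challenged Vegfr3iLECko, challenged control and unchallenged control conjunctiva (x axis). Bars are means, error bars are SD over 3 pools and symbols are single libraries. C2 is the only member whose 3 challenged controls (12.7 to 27.4 CPM) lie above all 3 unchallenged controls (3.88 to 9.56 CPM) and above all 3 knockouts (8.32 to 9.96 CPM). Of all genes, 7.21% were higher without overlap with challenge and 6.24% lower with genotype.

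The classical pathway begins with C1ra, one of the mouse genes for the protease C1r that activates C1s. Its level was 115, 91.0 and 82.3 CPM in challenged knockouts 1 to 3, 127, 132 and 113 CPM in challenged controls 1 to 3, and 121, 122 and 89.1 CPM in unchallenged controls 1 to 3. All groups overlapped, and only knockout 1 reached the range of the challenged controls. C1ra differed by a log2 of 0.17 with challenge (SE 0.18, adjusted p = 0.817), the smallest of the 8 in size, and by -0.37 with genotype (SE 0.18, adjusted p = 0.618). The 6 fibroblast markers, among them Col1a1 and Dcn, summed to 8434, 4624 and 3359 CPM in knockouts 1 to 3, to 6585, 9256 and 7795 CPM in challenged controls 1 to 3 and to 6741, 11580.3 and 9999.9 CPM in unchallenged controls 1 to 3. Knockouts 2 and 3 lay low in both, but unchallenged control 3 had a low C1ra level with a high sum, and the part of fibroblasts in the C1ra levels was not tested.

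C4b, the main gene for complement C4 in these libraries, gives rise to C4b, which binds covalently to targets and holds C2. It was at 185, 102 and 133 CPM in challenged knockouts 1 to 3, 255, 233 and 131 CPM in challenged controls, and 168, 138 and 76.7 CPM in unchallenged controls. Challenged controls 1 and 2 were the highest of the 9 libraries, whereas challenged control 3 lay within the range of both other groups. C4b had a challenge log2 fold change of 0.70 (SE 0.34, adjusted p = 0.471) and a genotype log2 fold change of -0.56 (SE 0.34, adjusted p = 0.695). Replicate numbers were taken to pair the 2 control groups from these data and not from a label. Within them the challenge differences were 0.60, 0.76 and 0.77 on the log2 scale, all above 0. With the number as a block in these 2 groups C4b rose (log2 0.71, adjusted p = 0.0317), beside 2.23% of all genes called higher. With the block in all groups C4b did not pass (adjusted p = 0.154).

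C2, the serine protease that C4b presents to C1s, had the largest challenge difference of the 8. It was at 8.32, 9.96 and 9.26 CPM in challenged knockouts 1 to 3, 27.4, 12.7 and 16.6 CPM in challenged controls, and 9.56, 4.25 and 3.88 CPM in unchallenged controls. The challenged controls were above both other groups without overlap, and the knockouts overlapped with the unchallenged controls only through unchallenged control 1. Higher values without overlap were seen in 7.21% of all genes with challenge, and lower ones in 6.24% with genotype. These values gave a challenge log2 fold change of 1.68 (SE 0.40, adjusted p = 0.115) and a genotype log2 fold change of -1.04 (SE 0.39, adjusted p = 0.509).

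The call on C2 with challenge depended on the test. It rose by DESeq2 (adjusted p = 0.00204), which called 4.82% of genes. C2 also rose in edgeR with a block for the replicate number, both in all groups (adjusted p = 0.0414, 1.71% of genes called) and in the 2 control groups alone (adjusted p = 0.0198, 3.12% of genes called, 2.23% higher and 0.891% lower). The block was chosen from these same counts, and in all groups it includes the knockouts, which were not paired with the controls by number. With unchallenged control 1 left out, the C2 difference was 2.21 (adjusted p = 0.0384), and with challenged control 1 left out it was 1.32. Over all 9 such fits the adjusted p ran from 0.0384 to 0.427. The 13 interferon-induced genes summed, among them Gbp2, reached 687, 2275 and 1744 CPM in knockouts 1 to 3, 5924, 1224 and 3372 CPM in challenged controls and 745, 389.7 and 617 CPM in unchallenged controls. Both challenged groups had the same order of libraries in C2 and in this sum, and the unchallenged group did not. The 10 T cell markers summed to 28.2 to 39.0 CPM in challenged knockouts, 96.0 to 193 CPM in challenged controls and 15.5 to 25.6 CPM in unchallenged controls. The part of either in the C2 levels was not tested.

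Cfb, which encodes factor B of the alternative pathway, was the least abundant member, with 48, 19 and 21 counts in challenged knockouts 1 to 3, 52, 68 and 32 counts in challenged controls and 29, 62 and 29 counts in unchallenged controls. These counts correspond to 1.40 ± 0.410 CPM in challenged knockouts, 2.69 ± 0.758 CPM in challenged controls and 1.80 ± 0.493 CPM in unchallenged controls (SD, n = 3 pools each). In CPM challenged controls 1 and 2 were again the highest libraries, at 3.21 and 3.05 CPM against at most 2.37 CPM in any other, and the groups overlapped in both comparisons. Cfb had log2 fold changes of 0.57 with challenge (SE 0.40, adjusted p = 0.655) and -0.94 with genotype (SE 0.40, adjusted p = 0.571).

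The C2 and Cfb levels carry a limit of annotation. Cfb, C2 and C4b lie near each other on chromosome 17, and in GENCODE M21 (build GRCm38) the readthrough gene Gm20547 shares 59.5% of the exon bases of C2 and 81.6% of those of Cfb on the same strand. If reads on shared bases were set aside, both levels would be understated; the counting rule is not given in the sources used here, and its part was not tested. Near-identical copies of other members had few counts: C4a had 30 in challenged knockouts, 54 in challenged controls and 27 in unchallenged controls, C1rb had 12, 31 and 18 in the same groups, and Cd55b had 4, 0 and 3. How many reads fit C4b and C4a equally, or C1ra and C1rb, is not known from these counts.

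C3, the protein on which all pathways converge, had the most counts of the 8 and took 0.0252% to 0.102% of all counts in a library. It was at 901, 689 and 353 CPM in challenged knockouts 1 to 3, 1035, 1006 and 645 CPM in challenged controls, and 653, 653 and 261 CPM in unchallenged controls. The library numbered 3 was the lowest of each group, and challenged control 3 lay just below unchallenged controls 1 and 2. The challenge difference was 0.78 on the log2 scale (SE 0.41, adjusted p = 0.518) and the genotype difference -0.47 (SE 0.41, adjusted p = 0.771). Within replicate numbers the challenge differences were 0.66, 0.62 and 1.31 on the log2 scale. Blocked by number in all groups, the C3 difference was 0.87 with an SE of 0.18 in place of 0.41, and it did not pass (adjusted p = 0.0575, and 0.0568 in the 2 control groups alone). Without unchallenged control 3 the unblocked challenge difference was 0.46.

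**Figure D2:**
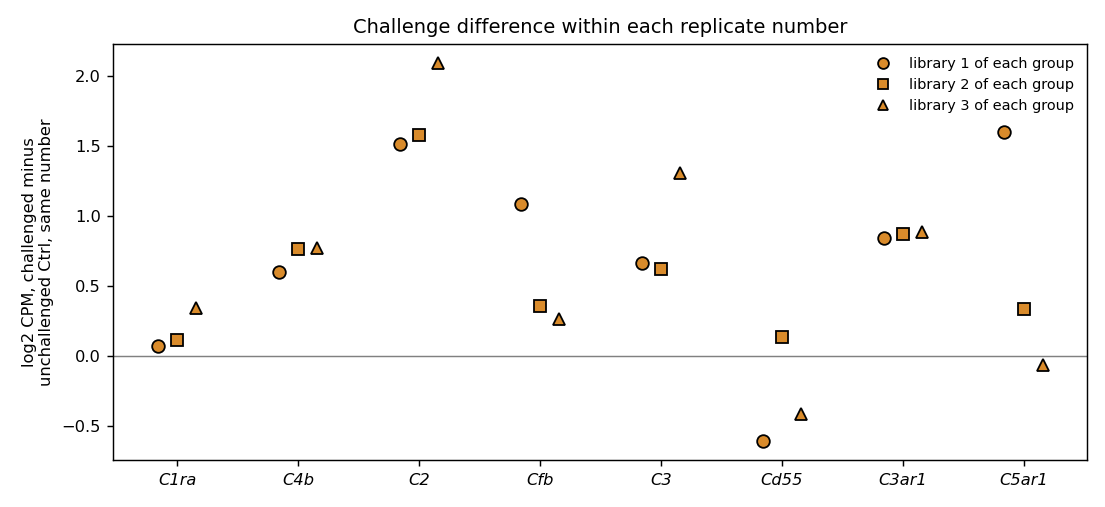
Difference in log2 CPM between the challenged and the unchallenged control library of the same replicate number (y axis) for each of the 8 genes (x axis); each symbol is a number. C3ar1 differs by 0.84 to 0.89 in all 3 numbers, while C5ar1 runs from -0.07 to 1.60 and Cd55 lies below 0 in 2 numbers.

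Cd55, decay-accelerating factor, was the only member with a lower fitted level with challenge. It was at 41.1, 29.4 and 33.6 CPM in challenged knockouts 1 to 3, 35.3, 33.5 and 33.3 CPM in challenged controls, and 53.8, 30.4 and 44.4 CPM in unchallenged controls. The challenged controls were almost level, and the unchallenged controls spread around them, with control 2 below all 3. Cd55 had a challenge log2 fold change of -0.33 (SE 0.22, adjusted p = 0.624) and a genotype one of 0.03 (SE 0.22, adjusted p = 0.979). The genotype value lay between -0.11 and 0.14 over the 9 fits that each omitted a library, so no direction is given for it.

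The receptor gene C3ar1 was at 18.2, 8.08 and 6.74 CPM in challenged knockouts 1 to 3, 38.5, 22.6 and 11.2 CPM in challenged controls, and 21.4, 12.4 and 6.03 CPM in unchallenged controls. Within each group library 1 was the highest and library 3 the lowest, and the groups overlapped widely. In the fit C3ar1 differed by 0.86 on the log2 scale with challenge (SE 0.56, adjusted p = 0.630) and by -1.12 with genotype (SE 0.57, adjusted p = 0.635). Inside the replicate numbers the challenge differences were nearly equal, at 0.84, 0.87 and 0.89 on the log2 scale. With the number as a block in the 2 control groups C3ar1 was called higher (log2 0.87, adjusted p = 0.0374), beside 2.23% of all genes. This block was chosen from these same counts and not from a label. With the block in all groups C3ar1 did not pass (adjusted p = 0.0647, SE 0.19 in place of 0.56). Leaving out challenged control 1 gave an unblocked value of 0.35, and leaving out unchallenged control 1 gave 1.38.

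C5ar1, the receptor for C5a, was at 19.1, 9.84 and 7.43 CPM in challenged knockouts 1 to 3, 43.4, 17.8 and 8.66 CPM in challenged controls, and 14.3, 14.1 and 9.08 CPM in unchallenged controls. Challenged control 1 stood far above every other library, and challenged control 3 was below all 3 unchallenged controls. C5ar1 differed by 0.90 on the log2 scale with challenge (SE 0.54, adjusted p = 0.590) and by -0.94 with genotype (SE 0.54, adjusted p = 0.680). Without challenged control 1 these values were 0.09 and -0.13. Within replicate numbers the challenge differences were 1.60, 0.34 and -0.07, a wider spread than that of C3ar1.

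Summed markers of myeloid cells, which carry these receptors, are given beside them. The 10 macrophage and monocyte markers, such as Adgre1 and Csf1r, summed to 1014, 557 and 657 CPM in challenged knockouts 1 to 3, 1574, 1235 and 714 CPM in challenged controls and 1063, 806 and 511 CPM in unchallenged controls. The 8 neutrophil markers in the table, such as S100a8 and Retnlg, summed to 275, 53.2 and 35.5 CPM in challenged knockouts, 415, 74.8 and 26.0 CPM in challenged controls and 98.1, 50.4 and 14.7 CPM in unchallenged controls; Mpo, Ngp and Camp were at 0 in some libraries. Library 1 was the highest of each group in both sums, as it was for C3ar1 and C5ar1. The part of the number of myeloid cells in the receptor levels was not tested.

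**Figure D3:**
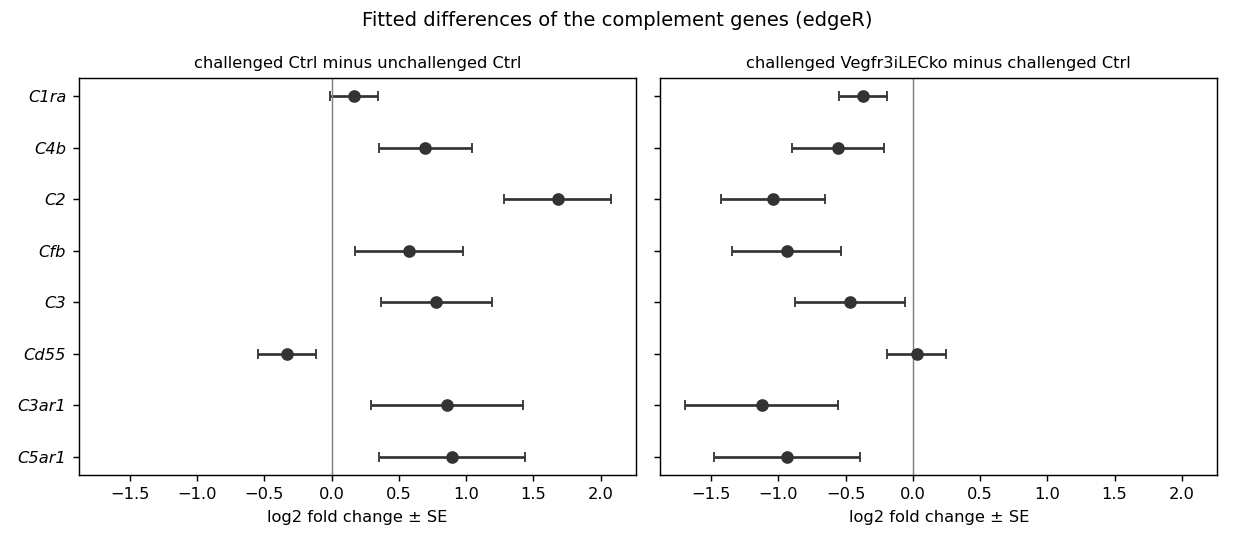
Log2 fold change with SE (x axis) of the 8 genes (y axis) from the edgeR fit of all 9 libraries, for challenged minus unchallenged controls on the left and challenged Vegfr3iLECko minus challenged controls on the right, which share the challenged control pools. C2 reaches 1.68 with challenge and C3ar1 -1.12 with genotype, and none of the 16 values passed over all genes.

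Between challenged knockouts and unchallenged controls no member passed. Of the 8, 3 had a log2 fold change above 0 and 5 below 0 (median -0.12, beside 0.0040 over all genes, of which 50.7% were above 0), and none of the 8 had groups that did not overlap, against 6.59% of all genes. None of the 8 had an unadjusted p under 0.05, against 2.9% of all genes; 0 genes passed over all genes by edgeR (0%) and 14 by DESeq2 (0.09%), none of them a member. C2 differed most, at 1.56 times the unchallenged level (log2 fold change 0.64, SE 0.39, adjusted p = 0.999).

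Per kilobase of exon (GENCODE M21 lengths, build GRCm38) the order of the members was nearly the same in all groups. C3 led with 126 ± 53.8 CPM per kb in challenged knockouts, 174 ± 42.3 in challenged controls and 102 ± 44.1 in unchallenged controls (SD, n = 3 pools each). C1ra followed with 32.2 ± 5.62, 41.7 ± 3.31 and 37.1 ± 6.24 CPM per kb in the same groups, and C4b with 26.0 ± 7.83, 38.4 ± 12.3 and 23.7 ± 8.63 CPM per kb. The C1ra and C4b ranges overlapped in every group, so their order is not settled. Cd55 was at 13.7 ± 2.34, 13.4 ± 0.442 and 16.9 ± 4.66 CPM per kb, above both receptors and C2 in the mean of every group. The places of C2 and Cfb hold only if reads on the bases shared with Gm20547 were counted for them. C5ar1, C2 and C3ar1 had means of 2.12 to 9.07 CPM per kb, and Cfb was last in each group with 0.507 ± 0.149, 0.979 ± 0.276 and 0.655 ± 0.179 CPM per kb. In challenged controls C2 came before C3ar1 in the mean and in unchallenged controls after it, with overlapping ranges in both.

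The members also differed in how alike their profiles were over the 9 libraries. Likeness was taken as the root mean square difference of log2 CPM after each gene was centred on its mean, so that 0 means the same profile. Among the 28 pairs of members the closest were C1ra with Cfb (0.33), C1ra with Cd55 (0.34), C3ar1 with C5ar1 (0.35) and C4b with C3 (0.35), and the farthest were C2 and Cd55 (0.91). The SD of a member's own profile was 0.25 for C1ra and 0.28 for Cd55, against 0.88 for C2 and 0.90 for C3ar1, so low values for steady genes are no sign of a shared pattern.

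Against all other genes with a mean of at least 1 CPM, the profiles nearest to C2 were those of Ctss (0.16), the lysosomal protease cathepsin S of antigen-presenting cells, H2-DMb1 (0.18), a chain that loads peptides on MHC class II, and Gstp3 (0.19). Nearest to C4b were Lyz2 (0.13), a lysozyme of myeloid cells, Pik3r6 (0.15) and Fli1 (0.18). Nearest to C3ar1 were Tlr13 (0.16), a myeloid receptor for bacterial RNA, Zfp971 (0.18) and Aoah (0.18), an enzyme that inactivates lipopolysaccharide. Nearest to C5ar1 were Hhex (0.16), Pik3cg (0.16) and Nrros (0.18), and to C1ra Ppt1 (0.064), Macf1 (0.088) and Man2a1 (0.091). Nearest to Cd55 were Setd7 (0.12), the tight junction gene Cldn8 (0.13) and Enpp5 (0.13). The nearest to C3 were Relt (0.20), Gm37233 (0.20) and Gm16754 (0.22), and to Cfb Adgre5 (0.21), Xylt1 (0.21) and Plet1 (0.21).

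In the wider complement system, 48 of 56 listed genes were in the table and 38 were tested, the 8 members among them. None of the 38 passed over all genes by edgeR in any comparison. With challenge 10 of the 38 had an unadjusted p under 0.05 against 12.4% of all genes. A log2 fold change above 0 was seen in 23, against 48.5% of all genes, and one below 0 in 15, and the median was 0.18. With genotype 11 of the 38 had an unadjusted p under 0.05 against 8.49% of all genes. Here 12 were above 0, against 50.4% of all genes, and 26 below, and the median was -0.37. By DESeq2 3 of the 38 passed with challenge (C2 and Itgb2 higher, Cfd lower, against 2.81% of genes called higher and 2.01% called lower) and 0 with genotype. Blocked by replicate number in all groups, with the unpaired knockouts included, 4 passed with challenge. They were C2, Itgb2 and Itgax higher and Cfd lower, against 1.18% of genes called higher and 0.525% called lower. Itgax is named after its values were seen.

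By role, the classical pathway had 8 of 9 tested genes above 0 with challenge (median 0.49) and 9 of 9 below 0 with genotype (median -0.56). Of all genes, 48.5% were above 0 with challenge and 50.4% with genotype (medians -0.01 and 0.0027). Both comparisons share the challenged control pools. C1s1, the protease that C1r activates, was at 141 ± 44.3 CPM in challenged knockouts, 231 ± 57.9 CPM in challenged controls and 198 ± 65.6 CPM in unchallenged controls (SD, n = 3), and its fitted difference was 0.22 with challenge (log2, adjusted p = 0.875) and -0.71 with genotype (log2, adjusted p = 0.569). The alternative pathway had 3 of 4 above 0 with challenge, and its exception was Cfd, the protease factor D or adipsin that cuts factor B and is made by fat cells. Cfd had 200, 62 and 2 counts in challenged knockouts 1 to 3, 8, 14 and 4 in challenged controls and 220, 512 and 20 in unchallenged controls. Its log2 fold change was -4.54 with challenge (SE 1.30, adjusted p = 0.178, and it fell in the fit with the block in all groups, adjusted p = 0.0331) and 3.08 with genotype (SE 1.26, adjusted p = 0.541). The Cfd challenge value was -3.77 without unchallenged control 2, and the genotype value was 2.03 without knockout 1. The 6 adipocyte markers listed, of which Fabp4 alone had counts in every library, summed to 6.97 to 12.0 CPM in challenged knockouts, 1.20 to 5.13 CPM in challenged controls and 3.83 to 43.1 CPM in unchallenged controls, and the part of fat tissue in the Cfd levels was not tested.

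Of the terminal pathway, which forms the membrane attack complex, C6 was at 4.46 ± 3.34 CPM in challenged knockouts, 11.5 ± 3.58 CPM in challenged controls and 3.84 ± 2.40 CPM in unchallenged controls (SD, n = 3). C6 differed by a log2 of 1.58 with challenge (adjusted p = 0.290) and of -1.35 with genotype (adjusted p = 0.573, and -2.17 without knockout 1). C7, which joins the complex after C6, differed by a log2 of -1.15 with challenge (adjusted p = 0.556) and of 0.32 with genotype (adjusted p = 0.894, and -0.47 to 0.68 with a library left out). With the block, chosen from these same counts, in the 2 control groups alone C6 was called higher (adjusted p = 0.0357) and C7 lower (adjusted p = 0.0390). Of all genes, that fit called 2.23% higher and 0.891% lower. With the block in all groups neither passed (adjusted p = 0.0570 for C6 and 0.0731 for C7). The lectin pathway had 3 of 9 genes tested, with Colec12, a scavenger receptor of the collectin family, at -0.53 with challenge (adjusted p = 0.603) and the ficolin gene Fcna at -0.73 (adjusted p = 0.622, and -1.41 without challenged control 2).

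Of the regulators, 2 of 7 tested membrane genes and 1 of 4 soluble ones were above 0 with challenge, beside 48.5% of all genes. Cr1l, the rodent regulator Crry, overlapped between all groups at 78.1 ± 0.978 CPM in challenged knockouts, 85.5 ± 14.0 CPM in challenged controls and 84.0 ± 21.8 CPM in unchallenged controls (SD, n = 3). Cd59a, which blocks the membrane attack complex, was at 11.2 ± 2.35, 7.87 ± 2.31 and 13.2 ± 0.832 CPM in the same groups (challenge log2 fold change -0.75, adjusted p = 0.266). Its challenged controls lay below all unchallenged controls, as did 8.5% of all genes. Serping1, the C1 inhibitor, had the highest level per kilobase of the genes listed, and was at 373 ± 97.0 CPM in challenged knockouts, 474 ± 34.0 CPM in challenged controls and 454 ± 93.2 CPM in unchallenged controls. Vtn, vitronectin, was at 1.22 ± 0.917, 0.778 ± 0.625 and 2.98 ± 1.67 CPM (challenge log2 fold change -1.92, adjusted p = 0.394).

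Of the receptor genes, 6 of 7 tested were above 0 with challenge (median 0.86) and 6 of 7 below 0 with genotype (median -1.01). Among all genes 48.5% were above 0 with challenge and 50.4% with genotype, and both comparisons share the challenged control pools. Itgb2, the β2 chain that C3 fragment receptors CR3 and CR4 share with other leukocyte integrins, was at 39.8, 27.5 and 23.0 CPM in challenged knockouts 1 to 3, 94.5, 56.6 and 46.9 CPM in challenged controls and 34.3, 22.0 and 14.7 CPM in unchallenged controls. The challenged controls were above both other groups without overlap, beside 7.21% of all genes higher with challenge and 6.24% lower with genotype. Its log2 fold change was 1.48 with challenge (SE 0.36, adjusted p = 0.124, and it rose with the block in all groups, adjusted p = 0.00851) and -1.13 with genotype (SE 0.36, adjusted p = 0.431). Itgam, the α chain of CR3, was at 78.9 ± 27.2 CPM in challenged knockouts, 115 ± 9.69 CPM in challenged controls and 84.4 ± 9.60 CPM in unchallenged controls (challenge log2 fold change 0.44, adjusted p = 0.520), and 70.0% of its exon bases are shared with Gm49368 on the same strand in GENCODE M21.

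**Figure D4:**
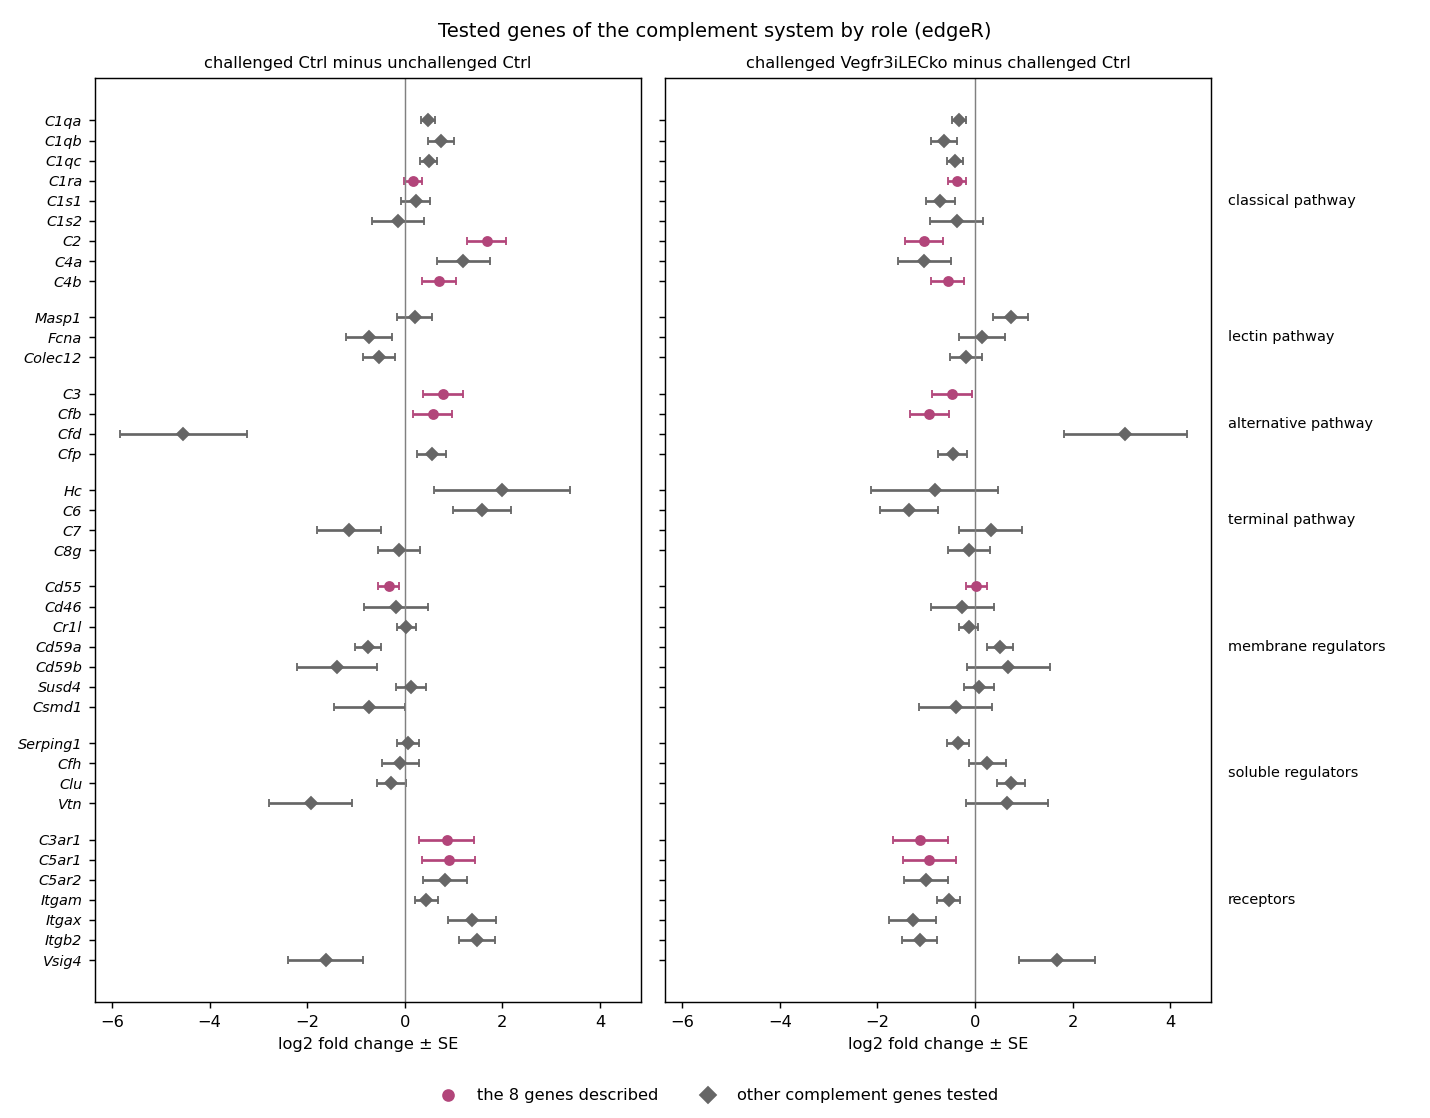
Log2 fold change with SE (x axis) of the 38 tested complement genes (y axis, grouped by role) for challenged minus unchallenged controls on the left and challenged Vegfr3iLECko minus challenged controls on the right; circles are the 8 members and diamonds the other genes. Classical and receptor genes lie mostly above 0 with challenge (medians 0.49 and 0.86) and below 0 with genotype (medians -0.56 and -1.01), and Cfd lies farthest out at -4.54 and 3.08. The medians over all genes are -0.01 with challenge and 0.0027 with genotype. Both comparisons share the challenged control pools, and none of the 38 passed over all genes by edgeR.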

How the data were processed

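The authors deposited whole-number raw read counts of 20603 genes, named by symbol, in 9 libraries of pooled conjunctiva. Per the submitters' processing notes HISAT2, Bowtie2, DESeq2 and the build mm39 were used; for versions, counting program, annotation and strand, nothing is given in the sources used here. Filtering with filterByExpr left 15613 genes, TMM factors were computed, and all 9 libraries entered 1 edgeR quasi-likelihood fit with group as the only term (R 4.3.3, edgeR 4.0.16, limma 3.58.1). Fold changes are the named group over its control; the SE is the log2 fold change over the root of the test's F. The threshold was 0.05 for p-values adjusted by Benjamini-Hochberg over every gene tested (two-sided), and every adjusted p is edgeR's unless another tool is named. The fit was tested on simulated counts with the same spread for all genes. It recovered 30% of 40 genes changed by a log2 of 1 and 17.5% of 40 changed by -1. The shares were 92.5% at 2, 87.5% at -2 and 100% at 3, with 9 false calls. Real genes do not share 1 spread: the challenge SE was 0.18 for C1ra and 0.56 for C3ar1. Neither Cfd at a challenge log2 of -4.54 nor any of the 13 interferon-induced genes (median 3.05) passed in the main fit. A member that did not pass may thus still differ by a log2 of 1 or more, and the simulation sets no upper limit. No 2 libraries of a group were copies.

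Replicate numbers were checked by correlating deviations from group means. Between the control groups the 3 correlations were 0.269 to 0.530, all above 0.1, so these were treated as paired by the data, not by a label. With the knockouts 2 of 3 were above 0.1, so they were not, though the block in all groups still included them. Libraries of unlike numbers were not correlated. The block was thus chosen from the same counts it was used on, and its adjusted p-values do not come from a paired design. Alternatives were DESeq2 1.42.0, RLE factors, no count filter, the number as a block, only the groups compared, and each library left out. The members, the lists and the rule for named genes (all members, genes of the complement list that passed, the most abundant and the most different gene of each role, and the 3 nearest profiles of each member) were chosen with earlier results of these data known. A gene of the marker lists is not reported here and was left out of its list's sum. Promoter and exon annotation is of GRCm38 and was used for names, lengths and sequences only. Counting limits cover counting error only, since reads were not deduplicated by molecular identifiers.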

Additional observations from a re-analysis of the deposited data

How the results depend on the processing

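With challenge the count of genes called, 10, was 750 by DESeq2, 20 without a count filter, 267 with the replicate block, 476 with the block in 2 groups, 1 with only the 2 groups compared, and 0 to 121 when 1 library was left out. It was 0 without unchallenged control 2 or 3 and 121 without unchallenged control 1. The count of members called, 0, was 1 by DESeq2, 1 with the block, 3 with the block in 2 groups and 0 to 1 with 1 library left out. That of the complement list, 0, was 3, 4, 9 and 0 to 1 in the same order. Of all genes tested, DESeq2 called 4.82%, the block 1.71% and the block in 2 groups 3.12%. The cause of these differences was not tested. With genotype 0 genes passed, 231 by DESeq2 and 22 with the block over all 9 libraries, in which 1 complement gene, Itgb2, was called (adjusted p = 0.0354); the knockouts share only a number with the controls. Between knockouts and unchallenged controls 14 genes passed by DESeq2. Leave-one-out fits changed the sign of these values. With challenge they were Flt4 (-0.33 to 0.17), C1s1 (-0.0025 to 0.48), Cr1l (-0.10 to 0.26) and Serping1 (-0.083 to 0.21). With genotype they were Cd55 (-0.11 to 0.14), Colec12 (-0.67 to 0.024), Fcna (-0.31 to 0.81), C7 (-0.47 to 0.68), Cr1l (-0.22 to 0.0022) and Vtn (-0.16 to 1.09). Between knockouts and unchallenged controls they were C4b (-0.12 to 0.39), C3 (-0.0071 to 0.61), C3ar1 (-0.84 to 0.26), C5ar1 (-0.53 to 0.22), C6 (-0.58 to 0.81), Cr1l (-0.23 to 0.13) and Itgam (-0.35 to 0.14). No member changed sign under the other alternatives named. The likeness values printed above use TMM factors. Those with RLE factors were added after the data were seen and are not given here. Counts set the precision of Cfb (19 to 68 per library) more than of the other members.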

Other observations

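The 3 C1q chain genes, chosen after their values were seen, encode the recognition subunit of the classical pathway and are made largely by macrophages. C1qa was at 86.6 ± 13.4 CPM in challenged knockouts, 108 ± 7.68 CPM in challenged controls and 77.7 ± 5.71 CPM in unchallenged controls (SD, n = 3), with challenged controls above both other groups without overlap, beside 7.21% of all genes higher without overlap with challenge and 6.24% lower with genotype. C1qc had the same lack of overlap, at 76.7 ± 6.42, 103 ± 19.1 and 73.3 ± 6.82 CPM in the same groups. Both genotype gaps were narrow. The highest knockout and the lowest challenged control were at 102.1 and 102.5 CPM for C1qa and at 81.7 and 82.3 CPM for C1qc. C1qb was at 100.4 ± 14.8, 156 ± 58.5 and 93.3 ± 21.3 CPM, with overlap. Without a block none passed over all genes by edgeR, with adjusted p of 0.201, 0.238 and 0.283 for C1qa, C1qc and C1qb with challenge. With the replicate block, chosen from these same counts, C1qb was called higher in the 2 control groups (adjusted p = 0.0452), beside 2.23% of all genes. With the block in all groups C1qb did not pass (adjusted p = 0.0807). Clu, clusterin, a soluble inhibitor of the terminal complex, was the only tested complement gene with all challenged knockouts above all challenged controls: 252 ± 40.8 CPM in challenged knockouts, 151 ± 49.7 CPM in challenged controls and 183 ± 54.9 CPM in unchallenged controls (genotype log2 fold change 0.74, SE 0.30, adjusted p = 0.538), beside 6.7% of all genes.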
